A study of Rattus norvegicus with 18 samples.

Results

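Tnf, Il1a, Il1b and Il1rn were followed in cultured rings of rat thoracic aorta. Members were taken by annotation, as every probe set that the platform tables assign to 1 of these 4 genes and to no other. That gave 6 probe sets, all on the Affymetrix RAE230A array (array A), where 10411 genes have a probe set of their own, and 0 on the RAE230B array (array B). The genes themselves were chosen on measured values, since the VEGF against untreated differences of Tnf and Il1b in the same arrays were already known. That comparison is therefore given as a description, with no test. The rings came from male Fisher 344 rats of 5 weeks, and each RNA pooled 4 to 6 rings of 2 mm. VEGF rings received 10 ng/ml recombinant human vascular endothelial growth factor at day 13 of culture. Ang1 rings received 100 ng/ml recombinant human angiopoietin-1 together with 5 µg/ml of an antibody to poly-histidine. Untreated rings stayed in the serum-free medium that all groups shared. No group received the antibody alone, so effects of angiopoietin-1 and of the antibody cannot be told apart. There were 3 RNAs per group, from 3 animals. The labels put RNA isolation at 20 h after the agents were added, and the design text at 18 h.

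Tumour necrosis factor (Tnf) and the interleukins 1 alpha and 1 beta (Il1a, Il1b) are the classical early cytokines of inflammation, made chiefly by macrophages and also by vascular cells. Tnf binds Tnfrsf1a and Tnfrsf1b, and both interleukins bind Il1r1 together with its partner Il1rap. All these receptors lead to NF-kB, which switches on chemokine and adhesion genes and, in turn, the cytokine genes themselves. Il1rn encodes the interleukin-1 receptor antagonist, which occupies Il1r1 without signalling, and Il1r2 is a decoy receptor. In the vessel wall these cytokines activate endothelium and draw in leukocytes, and aortic ring cultures hold endothelial cells, smooth muscle, fibroblasts and macrophages.

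Across the 9 RNAs on array A, 2 stood apart. The median correlation of an array with the other 8, in log2 signal, was 0.81 for Ang1 replicate 2 and 0.90 for untreated replicate 2, and 0.93 to 0.97 for the other 7. The 3' probe set of the housekeeping gene Gapdh gave a deposited signal of 446.9 and 64.4 in these RNAs, against 2218 to 3247 in the rest. Both were kept, and values without them stand beside the differences from untreated rings of the kept member probe sets. Results for receptors, other pathway genes and cell markers hold both RNAs throughout. Untreated replicate 1 is labelled as prepared by a 2-cycle procedure and the other RNAs by the standard one. The actin control's 3'/5' signal ratio, which reflects RNA quality and labelling, was 8.79 to 12.4 in VEGF, 6.18 to 8.29 in Ang1 and 1.86 to 7.70 in untreated RNAs, so it was higher in VEGF than in both other groups. The same ratio for Gapdh was 9.26 to 15.1 in VEGF, 2.27 to 11.3 in Ang1 and 1.70 to 11.9 in untreated RNAs, with overlapping groups.

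The 4 genes lie on 2 chromosomes in RefSeq (build GRCr8). Tnf sits on chromosome 20 between its relatives Lta and Ltb. Il1a and Il1b are direct neighbours on chromosome 3, and Il1rn lies elsewhere on chromosome 3. Their start-site regions are shown because 3 of the 4 genes were high in the same arrays. Each window runs 5′ to 3′ from 250 bases before the start site to 50 after it, and capitals mark the motifs found. The windows are chr20:3626435-3626734 (plus strand) for Tnf, chr3:136989968-136990267 (minus strand) for Il1a, chr3:137036532-137036831 (minus strand) for Il1b and chr3:27520072-27520371 (plus strand) for Il1rn.
Tnf: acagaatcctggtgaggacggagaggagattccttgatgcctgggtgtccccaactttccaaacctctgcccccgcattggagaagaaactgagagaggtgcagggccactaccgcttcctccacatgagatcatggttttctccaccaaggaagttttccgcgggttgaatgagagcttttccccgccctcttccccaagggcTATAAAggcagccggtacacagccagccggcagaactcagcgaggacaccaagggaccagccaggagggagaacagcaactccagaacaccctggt
Il1a: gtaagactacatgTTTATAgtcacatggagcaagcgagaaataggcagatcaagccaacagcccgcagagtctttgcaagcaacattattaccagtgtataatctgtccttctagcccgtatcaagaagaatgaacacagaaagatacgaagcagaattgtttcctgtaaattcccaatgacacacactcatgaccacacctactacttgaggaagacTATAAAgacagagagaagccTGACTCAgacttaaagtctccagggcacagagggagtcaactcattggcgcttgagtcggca
Il1b: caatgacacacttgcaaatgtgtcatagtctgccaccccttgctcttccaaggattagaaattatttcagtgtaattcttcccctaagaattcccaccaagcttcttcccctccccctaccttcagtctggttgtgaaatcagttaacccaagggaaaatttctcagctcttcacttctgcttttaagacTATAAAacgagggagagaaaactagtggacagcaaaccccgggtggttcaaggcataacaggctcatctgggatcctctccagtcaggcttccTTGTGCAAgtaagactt
Il1rn: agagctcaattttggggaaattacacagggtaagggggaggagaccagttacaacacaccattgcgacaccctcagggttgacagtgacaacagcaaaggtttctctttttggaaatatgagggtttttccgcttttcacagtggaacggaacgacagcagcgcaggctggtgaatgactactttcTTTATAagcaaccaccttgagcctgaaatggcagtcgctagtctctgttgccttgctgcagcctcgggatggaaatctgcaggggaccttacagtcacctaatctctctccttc

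Both strands were searched for TATAAA (the TATA box), TGANTCA (AP-1), TTGCNNAA (C/EBP) and the kappaB consensus of NF-kB. TATAAA was found in all 4 windows, against 14.2% of 33469 RefSeq promoter windows of the same length. It began at position -46 in Tnf, -32 in Il1a and -60 in Il1b on the forward strand, and on the reverse strand at -64 in Il1rn and at -237 in Il1a. An AP-1 match began at -12 in Il1a (7.33% of all windows hold one), and a C/EBP match on the reverse strand at 34 in Il1b (10.6%). No 2 matches overlapped. The kappaB consensus occurs in 4.18% of windows and its letters were in none of these 4, which says nothing about sites outside them.

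**Figure D1:**
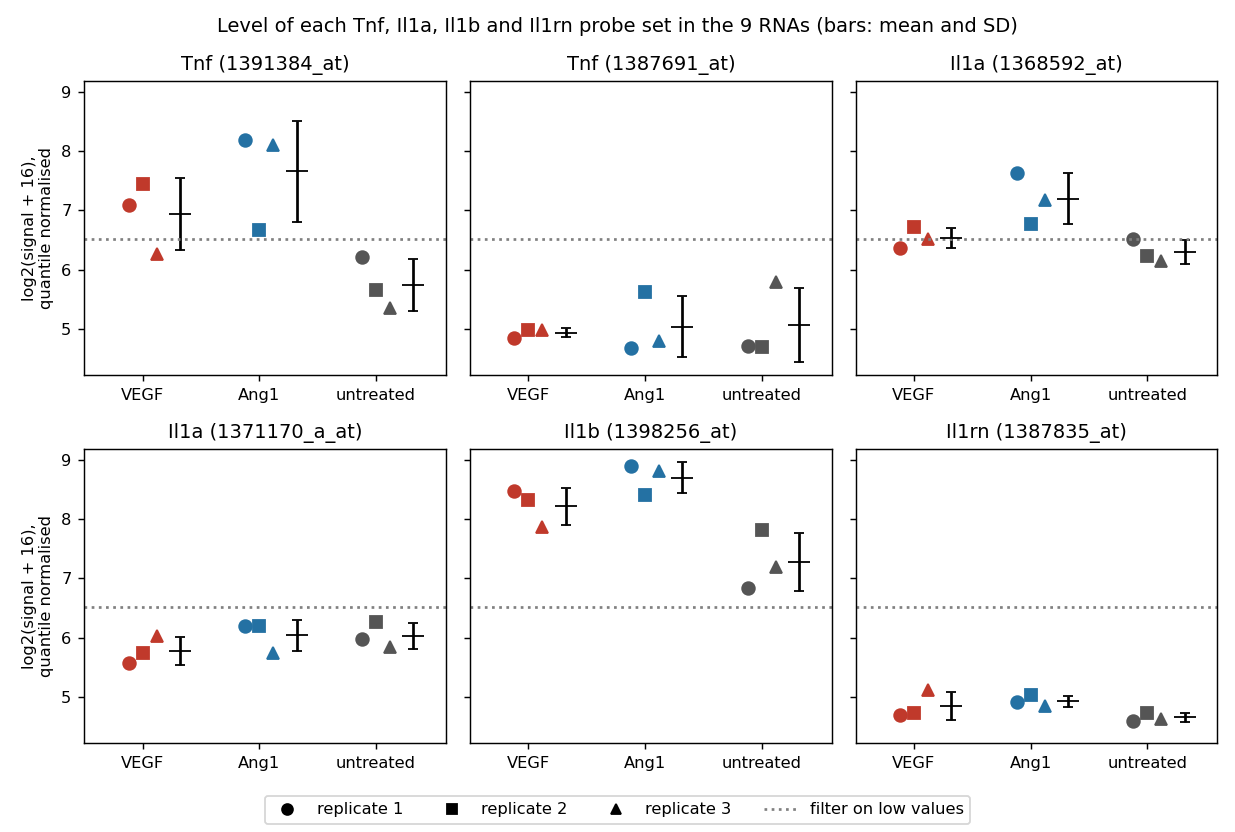
Level of each member probe set in the 9 RNAs, as quantile-normalised log2(signal + 16), with 1 point per RNA (shape: replicate number) and the mean with SD of each group beside it. Dotted lines mark the filter on low values at 6.52. For Tnf 1391384_at, Il1a 1368592_at and Il1b 1398256_at the 3 Ang1 points lie above the 3 untreated points, while Tnf 1387691_at, Il1a 1371170_a_at and Il1rn stay below the filter in every RNA.

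Levels are log2(signal + 16) after quantile normalisation, and a difference on that scale understates the change of a dim probe set. Of the 6 probe sets, 3 passed the filter on low values, which kept the 9520 brightest of 15866 by their mean over all 9 arrays. These were 1 each for Tnf, Il1a and Il1b. Il1rn did not pass, nor did a second probe set each of Tnf and Il1a. Those 3 were fitted with all 15866 probe sets instead. For VEGF and for Ang1 against untreated rings, and between VEGF and Ang1 rings, 0 of the 9520 passed an adjusted p of 0.05 (0% in each; limma with Benjamini-Hochberg adjustment), with 157, 302 and 189 at an unadjusted p below 0.05. In Ang1 against untreated and VEGF against Ang1 rings none of the 6 member probe sets passed, the 3 fitted with all 15866 included.

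Tnf was kept on 1 of its 2 probe sets, 1391384_at. Its deposited signal was 113.3, 158.6 and 65.7 in VEGF rings, 277.4, 141.4 and 263.3 in Ang1 rings and 51.4, 29.7 and 20.6 in untreated rings. All 6 treated RNAs were above all 3 untreated ones, and Ang1 replicates 1 and 3 were the highest of the 9. The level was 6.94 ± 0.61 after VEGF, 7.66 ± 0.86 after Ang1 and 5.74 ± 0.44 log2 units in untreated rings (SD, n = 3 each). Ang1 rings thus had 3.79-fold the untreated level (1.92 ± 0.47 log2, SE; adjusted p = 0.953), the largest upward difference among the 9520 probe sets of that comparison. VEGF rings had 2.29-fold the untreated level (1.20 ± 0.47 log2). Without both RNAs that stood apart the differences were 2.44 for Ang1 (adjusted p = 0.334) and 1.17 for VEGF. With a pseudocount of 64 the VEGF difference was 0.75.

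The filter bears on this gene. On its own array, Tnf 1391384_at lay at percentile 34.8 to 58.5 in VEGF, 43.1 to 72.2 in Ang1 and 19.2 to 33.8 in untreated RNAs, and the filter was set at percentile 40 of the means. It passed through the treated groups, so a difference among kept probe sets was partly built in. The platform table gives no accession for 1391384_at. The other Tnf probe set, 1387691_at, had signals of 11.3, 15.1 and 15.7 after VEGF, 10.7, 56.7 and 9.9 after Ang1 and 8.7, 8.3 and 32.5 in untreated rings. On its own array it lay at percentile 12.5 to 14.4 in VEGF, 9.7 to 23.2 in Ang1 and 10.0 to 25.8 in untreated RNAs. Its high values came from 1 RNA each of the Ang1 and untreated groups. In untreated replicate 3 its signal of 32.5 was above the 20.6 of 1391384_at. It differed by -0.13 ± 0.34 log2 units for VEGF and by -0.03 ± 0.34 for Ang1 (adjusted p = 0.994), so the 2 probe sets of Tnf disagree.

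Il1b was the member with signal well inside the measured range in every RNA. Probe set 1398256_at gave 343.6, 306.6 and 230.1 in VEGF rings, 462.4, 341.6 and 451.4 in Ang1 rings and 89.6, 174.9 and 120.0 in untreated rings. The treated values lay above all untreated ones in both groups, with Ang1 replicates 1 and 3 highest again. The means were 8.22 ± 0.32, 8.70 ± 0.26 and 7.28 ± 0.49 log2 units in VEGF, Ang1 and untreated rings (SD, n = 3 each). The Ang1 level was 2.67-fold the untreated one (1.42 ± 0.33 log2, SE; adjusted p = 0.953), rank 13 of 9520 by upward difference. The VEGF level was 1.91-fold the untreated one (0.94 ± 0.33 log2). Without both RNAs that stood apart the differences were 1.90 for Ang1 (adjusted p = 0.282) and 1.25 for VEGF. Untreated replicate 2, 1 of those RNAs, had the highest untreated signal. The lowest was that of untreated replicate 1, the RNA labelled as prepared by a 2-cycle procedure. Without untreated replicate 1 the differences were 1.19 for Ang1 and 0.71 for VEGF. On its own array Il1b lay at percentile 46.6 to 65.4 in untreated RNAs, above the filter without the treated groups.

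Il1a, the isoform that is active already as a precursor, was read by 2 probe sets. With 1368592_at the signal was 60.2, 88.3 and 81.8 after VEGF, 182.6, 151.5 and 121.5 after Ang1 and 67.2, 51.6 and 45.2 in untreated rings. The Ang1 values stood above all 6 others, whereas VEGF and untreated values overlapped. Levels were 6.53 ± 0.17, 7.20 ± 0.43 and 6.29 ± 0.20 log2 units in VEGF, Ang1 and untreated rings (SD, n = 3 each). The Ang1 level was 1.87-fold the untreated one (0.91 ± 0.30 log2, SE; adjusted p = 0.953), and the VEGF difference from untreated was 0.24 ± 0.30. Without both RNAs that stood apart these were 1.13 (adjusted p = 1.00) and 0.21. It was another probe set close to the filter, at percentile 45.3 to 62.1 in Ang1 RNAs and 32.3 and 33.9 in untreated replicates 3 and 2. The dimmer probe set 1371170_a_at gave 28.4, 37.3 and 53.9 after VEGF, 59.2, 99.7 and 32.3 after Ang1 and 41.1, 53.7 and 34.2 in untreated rings. Its groups overlapped, with differences of -0.25 ± 0.28 log2 units for VEGF and 0.01 ± 0.28 for Ang1 (adjusted p = 0.999).

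Il1rn, the antagonist, had very low signal. Probe set 1387835_at gave 8.2, 9.6 and 19.2 in VEGF rings, 15.0, 31.0 and 10.6 in Ang1 rings and 6.6, 8.9 and 6.6 in untreated rings. The 3 Ang1 values exceeded the untreated ones, and 1 VEGF value lay among the untreated ones. The levels were 4.84 ± 0.24, 4.93 ± 0.094 and 4.65 ± 0.075 log2 units in VEGF, Ang1 and untreated rings (SD, n = 3 each). The difference from untreated was 0.28 ± 0.18 log2 for Ang1 (SE; adjusted p = 0.921) and 0.19 ± 0.18 for VEGF. In no RNA did this probe set lie above percentile 16.2 of its array, and detection calls were not used here, so these values give little beyond a low level.

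**Figure D2:**
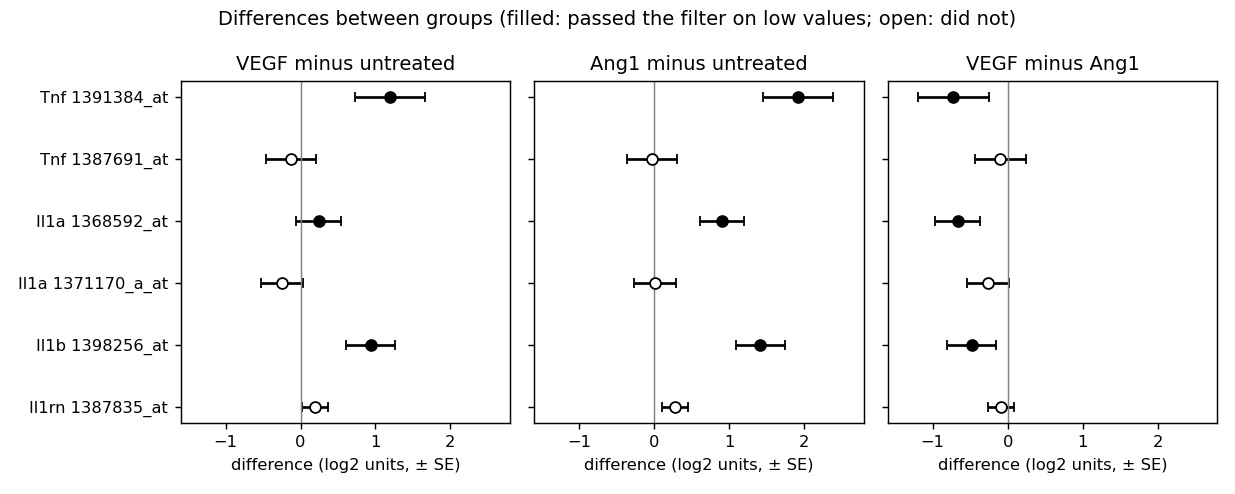
Differences between groups in log2 units with SE for the 6 probe sets, in 1 panel per comparison. Filled points passed the filter on low values and open points did not. Tnf 1391384_at and Il1b lie right of 0 in both comparisons with untreated rings (1.20 and 0.94 for VEGF, 1.92 and 1.42 for Ang1), and Il1a 1368592_at does so mainly for Ang1 (0.91).

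Groups did not overlap for all 3 kept probe sets in Ang1 against untreated rings, with the Ang1 values higher. Of all 9520 probe sets 3.57% showed that pattern. Tnf and Il1a had mean untreated levels below the filter and passed it through treated groups, and all 3 genes were chosen with the same untreated RNAs in view, so nothing is read from this count. In VEGF against untreated rings 2 of the 3, those of Tnf and Il1b, had all VEGF values above all untreated ones, against 3.63% of the 9520, and since that comparison led to the choice of the genes nothing is read from that count either. The 2 comparisons share the untreated RNAs. An exact test of 3 against 3 values cannot go below p = 0.1.

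Set directly against each other, VEGF rings had lower levels than Ang1 rings for each of the 3 kept probe sets, and none of the differences passed. Il1a differed by -0.67 ± 0.30 log2 units (SE; 95% interval -1.33 to -0.01; adjusted p = 0.972) with all VEGF values below all Ang1 ones, a pattern of 4.3% of the 9520 probe sets. This probe set passed the filter through its Ang1 values, since the mean of its other 6 levels lies below the filter, so a high Ang1 level was partly built in and nothing is read from that share. Tnf differed by -0.72 ± 0.47 (interval -1.76 to 0.31; adjusted p = 0.972) and Il1b by -0.48 ± 0.33 (interval -1.21 to 0.24; adjusted p = 0.972), with overlapping groups. For Tnf the overlap came from Ang1 replicate 2. Without that RNA its difference was -1.26, without both RNAs that stood apart -1.27, and without VEGF replicate 3 it was -0.39. For Il1b it was -0.31 without VEGF replicate 3.

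Levels of Tnf, Il1a and Il1b were correlated over the 9 arrays, with the group differences included. Taking the brightest probe set per gene, Pearson's r over the 9 arrays was 0.88 for Tnf with Il1a (Spearman's rho 0.85), 0.83 for Tnf with Il1b (rho 0.90) and 0.71 for Il1a with Il1b (rho 0.70). Without the 2 arrays farthest from the median of the first gene, Ang1 replicates 1 and 3 in each case, r was 0.74, 0.70 and 0.45. Without both RNAs that stood apart it was 0.87, 0.90 and 0.72. The group differences enter these values. For deviations from the group means r was 0.78, 0.38 and 0.10. The relation of Il1a with Il1b thus rests on the groups, and that of Tnf with Il1b was much weaker within them. Il1rn had r of 0.26 with Tnf, 0.42 with Il1a and 0.49 with Il1b, and for deviations from the group means these were -0.73, -0.23 and -0.34. Without the 2 arrays farthest from the median of Il1b, untreated replicates 1 and 3, r of Il1b with Il1rn was -0.11. These values are descriptions without a test, because the group differences that they hold led to the choice of the genes.

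**Figure D3:**
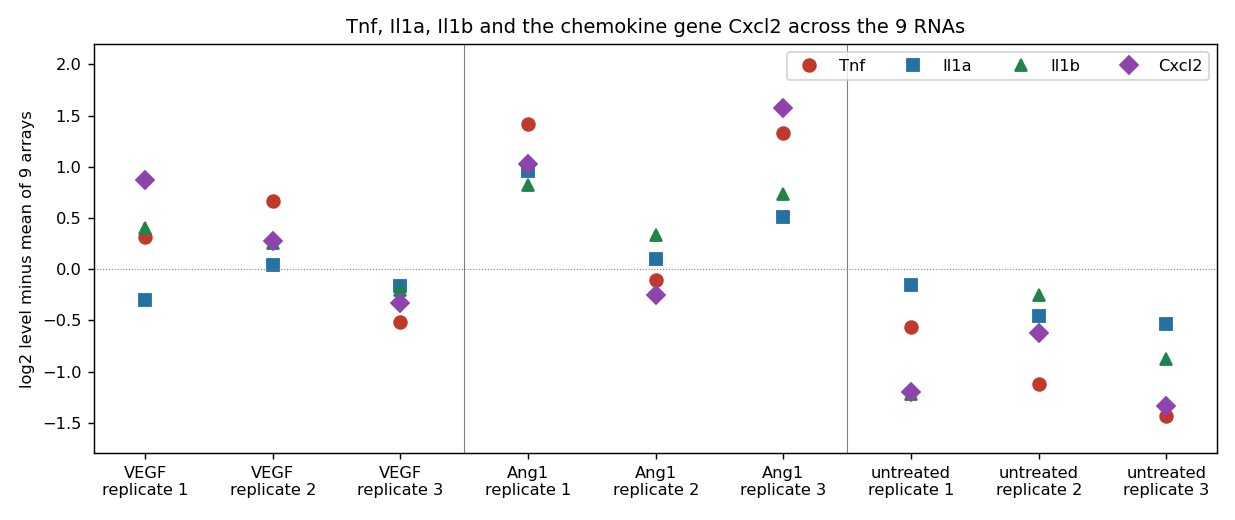
Log2 level of Tnf 1391384_at, Il1a 1368592_at, Il1b 1398256_at and the chemokine gene Cxcl2 in each RNA, minus the gene's mean over the 9 arrays, with the groups separated by vertical lines. Ang1 replicates 1 and 3 are the highest RNAs for all 3 cytokines and for Cxcl2, and the untreated RNAs lie below 0 for all 4 genes.

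Among 7174 other genes kept on array A, the one whose profile was most like that of Tnf was Cxcl2, a neutrophil chemokine gene (r = 0.92, rho = 0.95, 9 arrays). It was also first for Il1b (r = 0.92, rho = 0.95). Its level was 7.93, 7.33 and 6.72 log2 units after VEGF, 8.09, 6.81 and 8.63 after Ang1 and 5.85, 6.43 and 5.72 in untreated rings. Its untreated mean of 6.00 lay below the filter at 6.52, so it was kept through its treated values. Next to it for Tnf came Arel1 (0.91), the adhesion receptor gene Cd44 (0.89), the tubulin gene Tubb5 (0.89) and Sod2, the mitochondrial superoxide dismutase gene (0.89). For Il1b the others were Lyrm9 (0.86), the chemokine gene Ccl3 (0.86), the apoptosis inhibitor gene Birc3 (0.86) and the interferon regulatory factor gene Irf1 (0.85). Il1a was most like Aacs (0.91), Tubb5 (0.88), Spryd3 (0.88), Cd44 (0.87) and Spsb2 (0.86). Il1rn was most like Efs (0.97), Polr1a (0.95), Wbp1 (0.94), Tfeb (0.93) and Psmc4 (0.93), none of which is among the 5 most alike of another member. The Il1rn probe set had very low signal, so little can be read from its list. All genes named here were picked as the highest r among 7174 genes over 9 arrays, so these values are descriptions without a test.

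Results for the receptors were limited by signal. On array A the interleukin-1 receptor gene Il1r1, the decoy receptor gene Il1r2 and the second Tnf receptor gene Tnfrsf1b lay below the filter, with Il1r2 at signals of 4.5 to 15.2 after VEGF, 4.2 to 6.6 after Ang1 and 1.4 to 15.9 in untreated rings. Il1r1 (1369255_at) had 50.8 to 75.0 after VEGF, 42.0 to 87.5 after Ang1 and 61.2 to 82.3 in untreated rings. Tnfrsf1b had 36.8 to 47.2 after VEGF, 11.2 to 35.9 after Ang1 and 11.7 to 16.1 in untreated rings, so its VEGF signals lay above those of both other groups. The share of probe sets with such a pattern was counted among kept ones only, so nothing is read from it. The first Tnf receptor gene, Tnfrsf1a, was kept and differed by 0.35 ± 0.78 log2 units for VEGF and -0.36 ± 0.78 for Ang1 (SE; adjusted p = 0.974). Its Ang1 values were 9.35, 6.64 and 9.93, with replicate 2 far below the others. The accessory protein gene Il1rap was kept on array B alone (1393563_at). It had 8.18, 7.50 and 8.38 log2 units after VEGF, 7.50, 5.92 and 6.96 after Ang1 and 7.71, 9.05 and 8.36 in untreated rings. All Ang1 values were below the untreated ones, and Ang1 replicate 2 was the lowest. The share of array B probe sets with that pattern was not counted, so nothing is read from it. The Ang1 difference was -1.58 ± 0.48 log2 (SE; adjusted p = 0.466) and that of VEGF -0.36 ± 0.48. The Il1rap probe set of array A (1387507_at) lay below the filter, at 5.70 after VEGF, 6.14 after Ang1 and 5.88 log2 units in untreated rings. Its Ang1 mean was thus above the untreated one, opposite to array B, with deposited signals that overlapped.

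Genes that process the cytokines and carry their signals showed no common direction. Of 8 genes of processing and release kept on array A, 4 were higher and 4 lower in each treated group against untreated, with 0 passing (0% of all 9520 probe sets). The median difference was 0.01 log2 units for VEGF and 0.02 for Ang1, where all kept probe sets had -0.01 and -0.03. Casp1, the protease that matures interleukin-1 beta, differed by -0.51 ± 0.35 for VEGF and -0.54 ± 0.35 for Ang1 (SE; adjusted p = 0.953), and Adam17, the sheddase that frees Tnf from the membrane, by 0.26 ± 0.30 for VEGF and 0.24 ± 0.30 for Ang1 (adjusted p = 0.953). Of 13 adaptor and kinase genes, 6 were higher for VEGF and 4 for Ang1, with 0 passing and medians of -0.01 and -0.10. Myd88, the adaptor of the interleukin-1 receptor, differed by 0.13 ± 0.28 for VEGF and 0.15 ± 0.28 for Ang1 (adjusted p = 0.964), and Ripk1, a kinase of the Tnf receptor complex, by -0.05 ± 0.46 for VEGF and -0.37 ± 0.46 for Ang1 (adjusted p = 0.953). Ripk1 had 9.22, 7.57 and 9.52 log2 units after Ang1, with replicate 2 the lowest RNA of all. Ikbkb, a kinase that activates NF-kB, stood at 0.40 ± 0.31 for VEGF and 0.12 ± 0.31 for Ang1 (adjusted p = 0.978). Birc2 stood at 0.93 ± 0.89 for VEGF and -0.03 ± 0.89 for Ang1, with its lowest levels in the RNAs that stood apart (5.35 in Ang1 replicate 2 and 5.44 in untreated replicate 2, against 7.98 to 8.65 elsewhere). Of 7 related ligand genes 3 were higher for VEGF and 4 for Ang1, with 0 passing and medians of -0.04 and 0.22. Il18bp encodes the binding protein that blocks interleukin-18. It had 7.42, 7.44 and 7.18 log2 units after VEGF, 7.50, 7.56 and 7.25 after Ang1 and 6.92, 6.86 and 6.78 in untreated rings. Both treated groups lay above the untreated one (0.49 ± 0.25 for VEGF and 0.59 ± 0.25 for Ang1, SE; adjusted p = 0.953 for Ang1). Of all 9520 probe sets 3.63% showed that pattern for VEGF and 3.57% for Ang1. Il18bp was named for its small unadjusted p within the list, so nothing is read from its pattern. Faslg, the death ligand gene, differed by -0.35 ± 0.43 for VEGF and 0.57 ± 0.43 for Ang1, and the alarmin gene Il33 by -0.32 ± 0.35 for VEGF and -0.06 ± 0.35 for Ang1. Both had their highest level in Ang1 replicate 2, at 8.59 and 7.76 log2 units.

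Genes that array A lacked or held below the filter were taken from array B, and 0 of them passed (0% of 9166 probe sets for VEGF and for Ang1 against untreated rings and between VEGF and Ang1 rings, with 66, 960 and 777 at an unadjusted p below 0.05). Rhbdf2, which guides Adam17 to the surface, differed by 1.35 ± 0.82 log2 units for VEGF and 1.04 ± 0.82 for Ang1 (SE; adjusted p = 0.578). Gsdmd, whose product forms the pores that release interleukin-1, differed by 1.63 ± 0.65 for VEGF and 0.64 ± 0.65 for Ang1 (adjusted p = 0.658). Untreated replicate 2 was the lowest or next to lowest RNA for both, at 5.28 and 5.61. Irak3, an inhibitory kinase of the pathway, differed by 0.02 ± 0.52 for VEGF and -0.74 ± 0.52 for Ang1 (adjusted p = 0.546), and Traf6 by -0.24 ± 0.44 for VEGF and -0.40 ± 0.44 for Ang1 (adjusted p = 0.677). After Ang1 Irak3 had 9.45, 7.60 and 9.90 log2 units and Traf6 10.21, 8.48 and 9.95, with replicate 2 the lowest RNA of all for both. Map3k14, the kinase of the non-canonical NF-kB pathway, differed by -0.15 ± 0.30 for VEGF and 0.65 ± 0.30 for Ang1 (adjusted p = 0.466).

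Among 11 genes that act on the decay or translation of cytokine mRNAs, 4 were higher for VEGF and 6 for Ang1 on array A, with 0 passing and medians of -0.09 and 0.03. Zfp36 encodes tristetraprolin, which marks Tnf mRNA for decay. Its level was 7.60, 7.52 and 6.89 log2 units after VEGF, 8.02, 8.61 and 8.09 after Ang1 and 7.24, 7.14 and 6.90 in untreated rings. The Ang1 values lay above all others, including that of Ang1 replicate 2. Of the 11 genes 1 had all Ang1 values above all untreated ones, against 3.57% of the 9520 probe sets, so nothing is read from this pattern. The Ang1 difference was 1.14 ± 0.30 (SE; adjusted p = 0.953) and that of VEGF 0.24 ± 0.30. Mapkapk2, a kinase that restrains tristetraprolin, differed by 1.99 ± 0.72 for VEGF and 0.90 ± 0.72 for Ang1 (adjusted p = 0.953), with untreated values of 7.67, 7.03 and 9.96 that spread widely. On array B Tia1, a repressor of cytokine mRNA translation, differed by -0.49 ± 0.37 for VEGF and -0.62 ± 0.37 for Ang1 (adjusted p = 0.503).

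**Figure D4:**
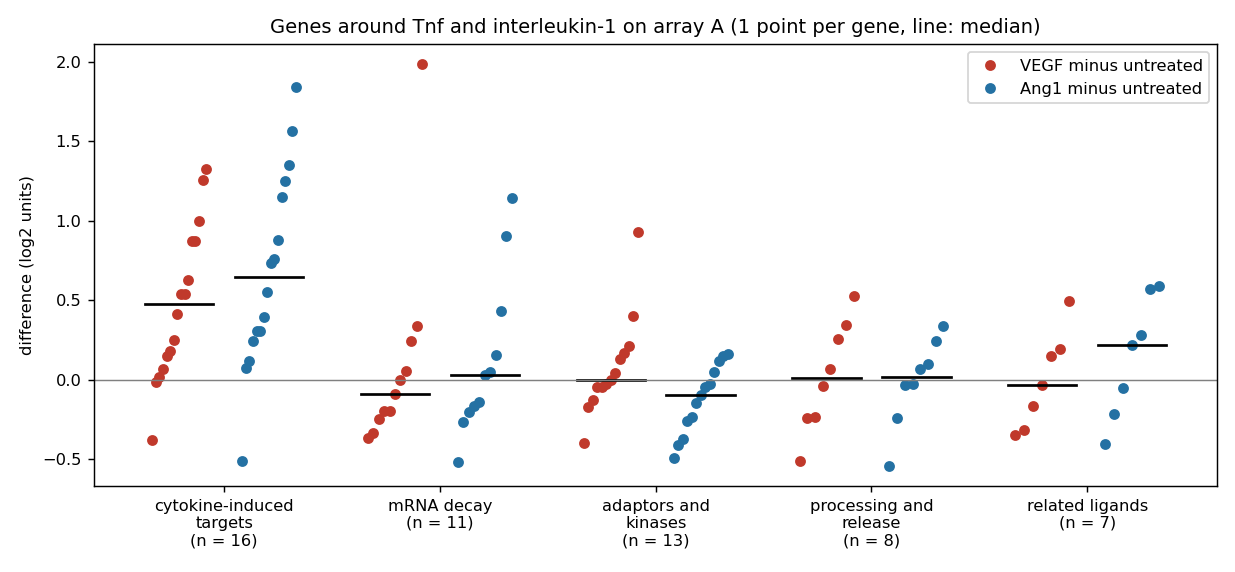
Difference from untreated rings in log2 units for each kept gene of 5 lists on array A, with VEGF left of Ang1 in each list and a line at the median. The 16 cytokine-induced targets have medians of 0.47 and 0.64, and the other lists lie between -0.10 and 0.22.

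Of 16 kept genes that Tnf and interleukin-1 are known to induce, 14 were higher after VEGF and 15 after Ang1, with 0 passing. The median difference was 0.47 log2 units for VEGF and 0.64 for Ang1, where 49.2% and 47.0% of all kept probe sets were higher. Groups did not overlap, with the treated values higher, for 5 and 4 of the 16, against 3.63% and 3.57% of the 9520. Of 23 listed genes on the array, 16 were kept. Untreated means of Cxcl2 (6.00), Mmp9 (6.46) and Ptges (6.45) lay below the filter at 6.52, so these genes passed it through treated groups. Cxcl2 was among the genes without overlap in both comparisons, where a higher treated level was partly built in. The 16 genes were listed with earlier results of the same arrays known, so the counts are not independent evidence of a direction. In Ang1 rings Cxcl2 stood at 1.84 ± 0.48, the monocyte chemokine gene Ccl2 at 1.35 ± 0.44 and Cxcl1 at 1.57 ± 0.85 (SE; adjusted p = 0.953 each). Cxcl1 had 9.58, 6.22 and 10.29 log2 units after Ang1, with replicate 2 below all 3 untreated RNAs, of which the lowest had 6.62. Nfkbia, the NF-kB inhibitor gene that NF-kB itself induces, differed by 0.25 ± 0.36 for VEGF and 0.55 ± 0.36 for Ang1. Il6 differed by -0.02 ± 0.45 for VEGF and 0.07 ± 0.45 for Ang1 (adjusted p = 0.991). The adhesion gene Icam1 differed by 0.87 ± 0.65 for VEGF and 0.30 ± 0.65 for Ang1 (adjusted p = 0.974). After Ang1 Il6 had 6.91, 5.81 and 7.71 log2 units and Icam1 9.79, 7.43 and 10.31. Ang1 replicate 2 was the lowest RNA of all for both genes. Untreated replicates 1 and 3 had 6.61 and 6.60 for Il6 and 9.08 and 9.47 for Icam1. Untreated replicate 2 was the highest untreated RNA for Il6 and the lowest for Icam1. The Ang1 differences of both genes thus depend on RNAs that stood apart. On array B the acute phase gene Saa3 had 7.97, 7.39 and 8.09 after VEGF, 8.34, 8.43 and 9.03 after Ang1 and 7.38, 7.18 and 7.71 in untreated rings (1.17 ± 0.33 for Ang1, adjusted p = 0.466).

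The cells that make these cytokines were followed through marker genes. In whole rings, fewer cells of a type and less RNA per cell cannot be told apart. Of 14 kept macrophage markers 10 were higher after VEGF and 11 after Ang1, with medians of 0.21 and 0.31 log2 units and 0 passing. Of all kept probe sets 49.2% and 47.0% were higher, with medians of -0.01 and -0.03. Summed over all 15 macrophage markers on the array, kept or not, the normalised signal was 17092 to 20829 in VEGF, 17312 to 18880 in Ang1 and 11676 to 19098 in untreated RNAs. The groups overlapped, and the low end was untreated replicate 3. Untreated replicates 1 and 2 had 19098 and 18556, and the part of replicate 3 in the marker counts was not tested. None of the 6 neutrophil markers on the array passed the filter (summed signal 119.98 to 168.5 in VEGF, 128.3 to 305.4 in Ang1 and 103.6 to 147.9 in untreated RNAs), among them the defining genes S100a8, S100a9 and Cxcr2. Of 8 lymphocyte markers 3 were kept, without the T cell genes Cd3e and Cd3d, and the sum over all 8 was 387.1 to 467.7 in VEGF, 427.1 to 665.8 in Ang1 and 362.8 to 490.0 in untreated RNAs. Of 7 mast cell markers 2 were kept, with sums over all 7 of 363.6 to 445.0 in VEGF, 272.0 to 363.8 in Ang1 and 282.4 to 531.6 in untreated RNAs. The part of these cells in the cytokine values was not tested. The vessel's own cells were present. Endothelial sums were 2286 to 3477 in VEGF, 1576 to 3552 in Ang1 and 1654 to 3326 in untreated RNAs. Smooth muscle sums were 6935 to 7607 in VEGF, 7902 to 8650 in Ang1 and 8105 to 13118 in untreated RNAs. Each VEGF smooth muscle sum was below all sums of the other groups. The low untreated sum was that of replicate 2, and untreated replicates 1 and 3 had 11498 and 13118. Fibroblast sums were 37276 to 38539 in VEGF, 30296 to 40299 in Ang1 and 33217 to 37510 in untreated RNAs. Ang1 replicate 2 had the highest neutrophil and lymphocyte sums and the lowest endothelial and fibroblast sums. Untreated replicate 2 had the highest mast cell sum.

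**Figure D5:**
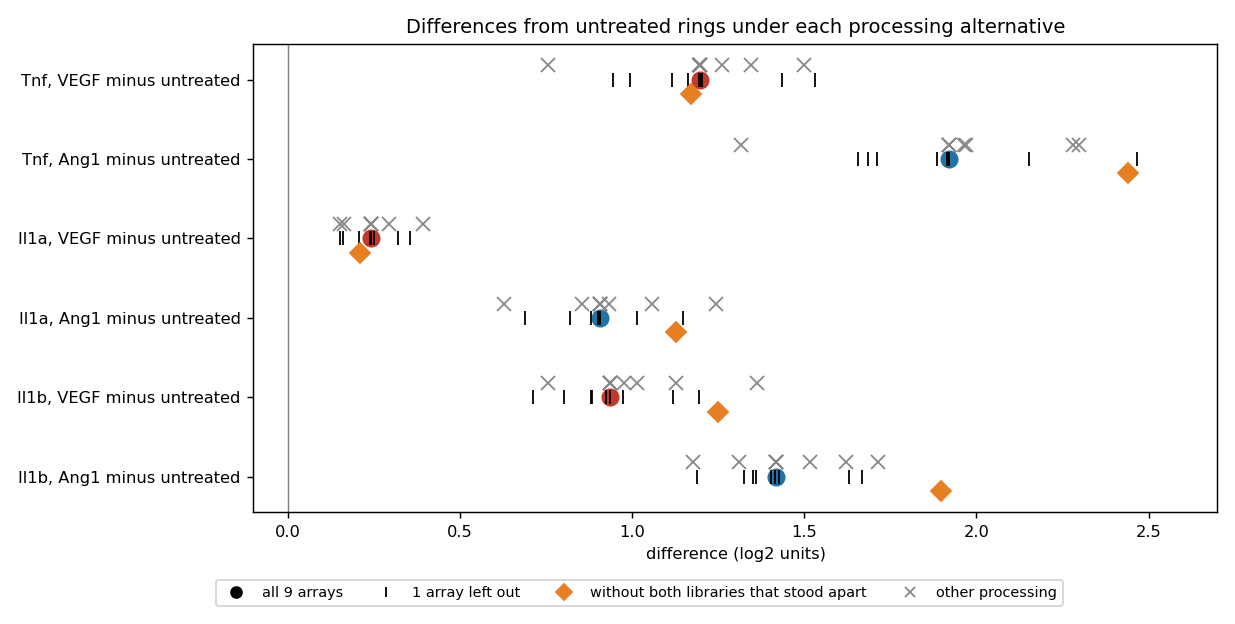
Difference from untreated rings in log2 units for the kept probe sets of Tnf, Il1a and Il1b (circles, red for VEGF and blue for Ang1), with ticks for each array left out, diamonds without both RNAs that stood apart and crosses for other processing. All values lie right of 0, from 0.15 for Il1a with VEGF to 2.47 for Tnf with Ang1.

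The actin ratio was higher in VEGF RNAs than in Ang1 and untreated RNAs, which overlapped, and the Gapdh ratio overlapped between all groups. The fit was repeated with the log2 actin ratio as a covariate, a choice made after the ratios were known. With it the Ang1 difference was 1.96 ± 0.60 log2 units for Tnf, 1.71 ± 0.38 for Il1b and 0.85 ± 0.37 for Il1a (SE; adjusted p = 0.652 each). The VEGF difference was 1.26 ± 0.70 for Tnf, 1.36 ± 0.44 for Il1b and 0.16 ± 0.44 for Il1a.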

How the data were processed

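The authors deposited linear signal intensities, for which the submitters' processing notes name MAS5 without a version. Each of 9 RNAs was read on both array types, 18 samples in all. Control probe sets (57 on array A) were left out, log2(signal + 16) was quantile normalised within an array type, and probe sets at or above the 40th percentile of the mean were kept. Groups were compared in 1 limma model over the 9 arrays of a type with an intensity trend (limma 3.58.1, R 4.3.3), adjusted by Benjamini-Hochberg over all kept probe sets at 0.05. The number of arrays limits the precision. The design text says that 3 animals gave 1 RNA to each group, and the labels do not say whether a replicate number marks an animal. The model was tested on simulated data. Symbols came from the platform annotation, with old symbols replaced by way of the gene ID, and 12789 probe sets of array A had 1 symbol, 312 several and 2822 none. Promoters came from RefSeq (GRCr8), and all 4 genes matched.

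Every member probe set is named. The other genes named were the 5 most alike per member, pathway genes listed by role and, per list, over both array types together, the 2 with the smallest p in each comparison with untreated rings. Members and lists were chosen with earlier results of these data known. Same-numbered RNAs deviated together for VEGF with untreated (correlations 0.14, 0.31 and 0.41) and for Ang1 with untreated (0.37, 0.49 and 0.34), not for VEGF with Ang1 (0.23, -0.02 and -0.15). Of different-numbered RNAs, Ang1 replicate 3 with untreated replicate 1 had 0.33 and Ang1 replicate 1 with untreated replicate 3 had 0.26. The other different-numbered Ang1 and untreated pairs, each holding a replicate 2 that stood apart, had -0.45 to -0.34. Different-numbered VEGF and untreated pairs had -0.34 to 0.10. A pairing by number rests on these correlations alone, and they do not settle it. Other settings tried covered normalisation, pseudocount, filter, variance model, samples fitted, pairing and RNAs left out.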

Additional observations from a re-analysis of the deposited data

How the results depend on the processing

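Alternatives covered the filter, pseudocounts of 1 and 64, deposited or median-centred values, no intensity trend, only the groups compared, the replicate block, each RNA left out, both RNAs that stood apart left out and, chosen after seeing the data, the actin ratio as a covariate. On array A the count of called probe sets was 0 under each. On array B it was 117 for Ang1 against untreated and 25 for VEGF against Ang1 with values as deposited, and 0 under the others run there (the covariate was fitted on array A alone). With the replicate block 294, 415 and 408 probe sets of array A had an unadjusted p below 0.05 for VEGF and for Ang1 against untreated rings and between VEGF and Ang1 rings, the Ang1 differences were 1.92 (adjusted p = 0.845) for Tnf and 1.42 for Il1b, and no call changed.

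For the kept probe sets of Tnf, Il1a and Il1b every alternative kept the direction of all 3 differences. For Ang1 against untreated and VEGF against Ang1 rings each adjusted p lay between 0.282 and 1.00. For VEGF against untreated rings the differences of Tnf and Il1b were known when the genes were chosen, so their direction there is a description. With 1 RNA left out, Tnf ranged from 0.94 to 1.53 for VEGF and from 1.66 to 2.47 for Ang1, Il1b from 0.71 to 1.19 and from 1.19 to 1.67, and Il1a from 0.15 to 0.35 and from 0.69 to 1.15. The covariate gave 1.36 for Il1b and -0.58 for Tnf 1387691_at (VEGF minus untreated; -0.31 to 0.24 with 1 RNA left out), and a pseudocount of 1 gave 0.42 for Il1rn, which was 0.055 without VEGF replicate 3. For Ang1 minus untreated Il1rn was 0.62 with a pseudocount of 1 and 0.10 with 64. The dim probe set of Tnf changed sign in all 3 differences under some settings, that of Il1a for Ang1 minus untreated, and Il1rn under none. Il1a 1371170_a_at ran from -0.087 to 0.16 for Ang1 minus untreated with 1 RNA left out. Tnf 1387691_at ran from -0.32 to 0.33 for that difference and was 0.26 with values as deposited. For VEGF minus Ang1 it ran from -0.28 to 0.20 and was 0.20 without both RNAs that stood apart. The causes were not tested. Low signal limits what these 3 probe sets and most receptor genes can show.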
